A study of Mus musculus with 4 samples.

Results

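Of the 48428 nuclei kept from the right ventricles (RVs) of prepubertal mice, 85 met a rule for B cell nuclei, and they are described here gene by gene and library by library. In 60 of them at least 2 B cell genes were found, and 25 entered on the gene Bank1 alone. Nuclei came from C57/BL6J wild-type mice at postnatal day 21 (P21). On P7 the pups had received either the fistula between the abdominal aorta and the inferior vena cava (ACF), which produces right ventricular volume overload (RVVO), or a sham operation that left out the puncture. Pups of either sex were randomized to the operations, the study does not state whether a library was made from 1 mouse or from a pool, and no gene was altered in any group. Each group had 2 libraries of 10x 3′ single-nucleus RNA sequencing, named sham 1, sham 2, RVVO 1 and RVVO 2, and every list of 4 values below follows this order. The measurement is the number of unique molecular identifiers (UMIs) per gene and nucleus. Because nothing in the sources says that the 2 libraries of a group are separate animals, any p-value measures only the spread between these libraries, which may be technical.

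A barcode was taken as a B cell nucleus by a rule on its UMIs. It had at least 200 genes and under 10% mitochondrial UMIs. Ryr2, the calcium release channel of cardiomyocytes (CMs), was below 1% of its UMIs. It held at least 3 UMIs summed over the B cell genes Bank1, Pax5, Cd79a, Cd79b, Ms4a1 and Ighm. It also held at most 1 UMI summed over Ptprb of endothelial cells (ECs), Pdgfra and Pdgfrb of fibroblasts and pericytes, and Mrc1 and F13a1 of macrophages. Ighm is not among the 27998 gene identifiers used here, so the rule rested on 5 genes, and immunoglobulin genes are not analysed here. The files held 53090 barcodes (15568, 15430, 8700 and 13392), of which 12982, 14564, 8247 and 12635 passed the first limits, and 19, 28, 6 and 32 passed the whole rule.

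The depth behind these nuclei was low and uneven. B cell nuclei had a median of 1945, 1905.5, 1532 and 3561.5 UMIs and of 1264, 1224, 998.5 and 1997.5 genes. Summed over the nuclei of a library, this gave 43460, 61883, 10022 and 133053 UMIs. RVVO 1 therefore contributed 6 nuclei and the fewest UMIs, and RVVO 2 more UMIs than the other 3 libraries together. Over all kept barcodes the order differed, with medians of 2434, 2265, 4823 and 3442 UMIs. RVVO 1 was thus the deepest library as a whole. Levels are given in CPM, a gene's UMIs scaled to the summed UMIs of the class in that library, so that 1 UMI weighs far more in RVVO 1 than in RVVO 2. A total of 275 barcode sequences were found in 2 libraries and 1 in 3. Of the 85 B cell nuclei, 1 carried such a barcode, and no barcode was shared by 2 B cell nuclei. High doublet scores marked 6 of the 85 nuclei (7.06%), against 10.8% of all kept barcodes.

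B cells are the lymphocytes that carry an antibody as their antigen receptor. The membrane antibody is held by the signalling chains CD79a and CD79b, which pass the signal to the kinases Lyn, Blk and Syk, the adaptor Blnk, and then to Plcg2 and Prkcb, while CD22 lowers it. The transcription factors Ebf1 and Pax5 set up and maintain the lineage, and mature B cells also present antigen on MHC class II. The mouse heart is known to hold a resident B cell population, largely lying in or next to its small vessels, and these cells have been studied for their part in cardiac inflammation and growth.

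The genes that chose the nuclei are given as a description. Bank1, an adaptor of the B cell receptor, had 2140, 2957, 2794 and 1744 CPM and was found in 81 of the 85 nuclei. Pax5 had 414, 873, 698 and 406 CPM in 45 nuclei, and Ms4a1, which encodes CD20, had 115, 356, 99.8 and 451 CPM in 33 nuclei. Cd79a had 46.0, 194, 0 and 128 CPM in 25 nuclei, and Cd79b had 69.0, 242, 0 and 97.7 CPM in 20 nuclei. Both receptor chains were thus at 0 UMIs in the 6 nuclei of RVVO 1. UMIs of at least 2 of these genes were present in 60 nuclei (10, 22, 3 and 25), of which 22 had 2 genes, 21 had 3, 13 had 4 and 4 had all 5. The other 25 nuclei (9, 6, 3 and 7) had entered on Bank1 UMIs alone.

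**Figure D1:**
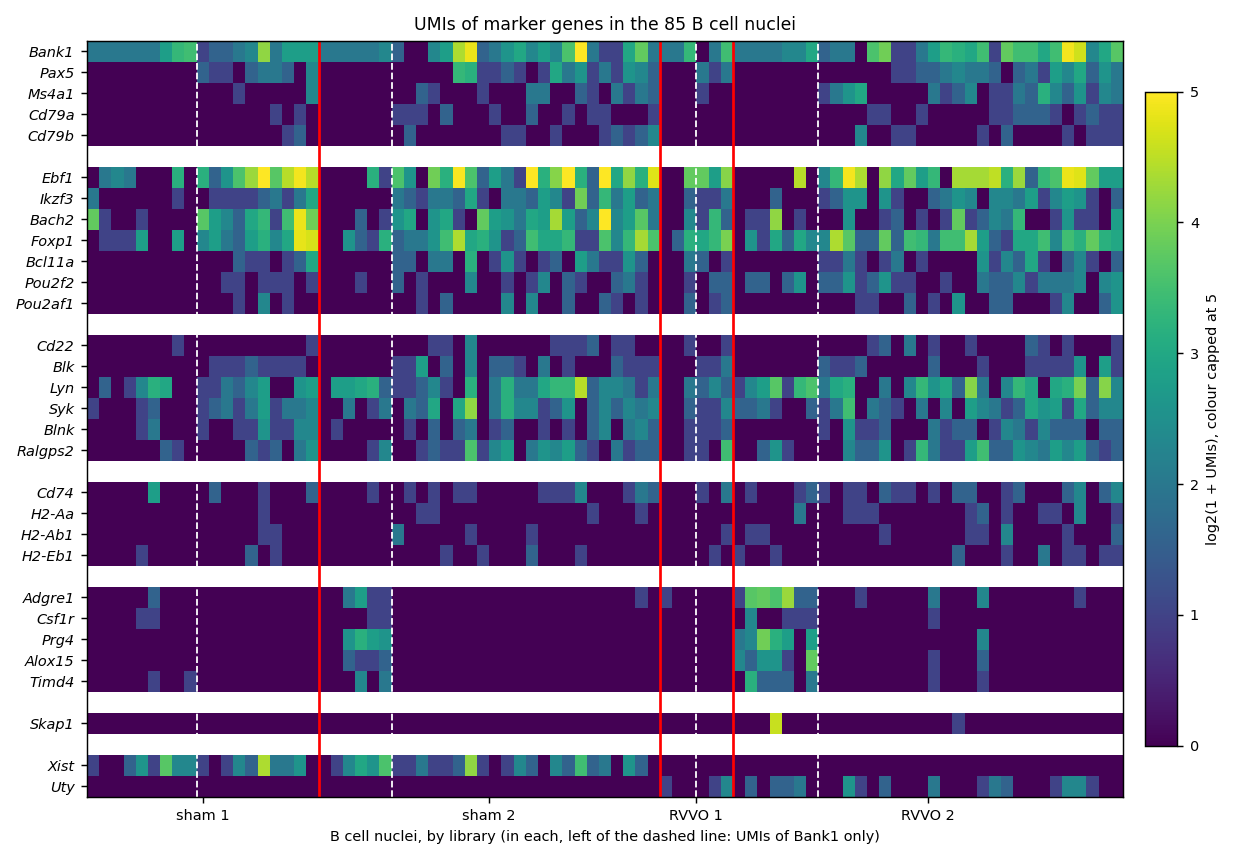
UMIs of marker genes in each of the 85 B cell nuclei, as log2(1 + UMIs) with the colour capped at 5. Rows are genes and columns are nuclei, grouped by library with red lines between libraries; left of each dashed line are the nuclei with UMIs of Bank1 alone. Ebf1, Ikzf3 and Blk fill most columns right of the dashed lines, Adgre1 and Prg4 lie mainly left of them in sham 2 and RVVO 2, and Xist and Uty divide the sham from the RVVO libraries.

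Genes outside the rule separated these 60 and 25 nuclei. Ebf1 was found in 57 of the 60 nuclei and in 8 of the 25. Blk was found in 38 of the 60 and in none of the 25, and Cd22 in 20 and 2. Ikzf3, which encodes the lymphoid factor Aiolos, was found in 53 and 4. Depth was similar, with medians of 2532.5 and 2326 UMIs. The nuclei with several B cell genes thus carried the lineage's other defining genes, whereas for most Bank1-only nuclei the label B cell was not borne out, and 15 of those 25 held neither Ebf1 nor Ikzf3. Of the 60, 1 held neither.

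Many of the Bank1-only nuclei carried macrophage transcripts. Adgre1, which encodes the macrophage receptor F4/80, was found in 13 of the 25 and in 5 of the 60, and by library in 1, 5, 1 and 11 nuclei. Of the 11 genes on the macrophage and monocyte list, 10 had a UMI in B cell nuclei and Ly6c2 had 0. The list summed to 172 UMIs, 140 in the 25 nuclei and 32 in the 60, and to 483, 436, 499 and 894 CPM. Adgre1 was its most abundant gene with 83 UMIs. Other genes, picked after their values were seen, lay in the same nuclei. Prg4, which encodes lubricin, had 65 UMIs in the 25 nuclei and 4 in the 60. Alox15, a lipoxygenase, had 36 and 3, Timd4, a receptor for dying cells, had 26 and 2, Padi4 had 22 and 1, and Saa3 had 43 and 8. These genes are known together from the large macrophages of serous cavities such as the peritoneum and pericardium. At least 1 of Prg4, Alox15, Timd4 and Padi4 was present in 12 of the 25 nuclei and 2 of the 60, by library in 2, 4, 0 and 8. Bank1 itself was found in 20.7% of the nuclei named macrophages below, each with exactly 1 UMI as their rule allowed. Values for the 60 nuclei alone are therefore given beside the main comparisons.

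The threshold fell among few barcodes. Among barcodes that met the limits on other cells' genes, 16635 had 0 UMIs of the B cell genes, 182 had 1, 26 had 2, 26 had 3, 7 had 4 and 52 had 5 or more. The 26 just inside came from the libraries as 9, 8, 2 and 7, and the 26 just outside as 6, 6, 2 and 12. Among barcodes that met the threshold, the limits on other cells' genes removed most. Of all kept barcodes, 648 had at least 3 UMIs of the B cell genes, and 563 of them failed a limit, 548 by the 5 excluding genes and 79 by Ryr2. In 442 of the 563 the UMIs came from 1 gene, and in 121 (15, 22, 34 and 50) from at least 2. The limits were met by 41.5%, 43.2%, 18.3% and 29.6% of kept barcodes.

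To place genes that many cells share, each nucleus was thinned at random to 500 UMIs and compared with 5 other classes taken by similar rules. These were 54 T and NK nuclei (12, 14, 10 and 18), 1432 macrophages (308, 380, 164 and 580), 13398 CMs, 4471 ECs and 1594 fibroblasts. Their median depths before thinning were 2627.5, 2384.5, 5862.5, 3006 and 3515.5 UMIs, against 2514 in B cell nuclei. Ikzf3 was found in 37.6% of B cell nuclei, 18.5% of T and NK nuclei and at most 0.14% of the other classes. Ralgps2, an exchange factor of B cells, was found in 38.8%, against 3.7% of T and NK nuclei and 4.47% of macrophages. Syk was found in 35.3%, 3.7% and 12.8% of these classes, and Lyn in 44.7%, 14.8% and 39.2%. Lyn was therefore nearly as frequent in macrophages, where it is also a known kinase. Ebf1 was found in 64.7% of B cell nuclei, 24.1% of T and NK nuclei and 13.3% of macrophages, but also in 54.9% of ECs and 61.7% of fibroblasts. In this tissue Ebf1 by itself did not mark B cells. Ptprc, the leukocyte gene for CD45, was found in 37.6%, 51.9% and 23.5% of the B cell, T and NK and macrophage classes and in at most 0.941% of the others.

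**Figure D2:**
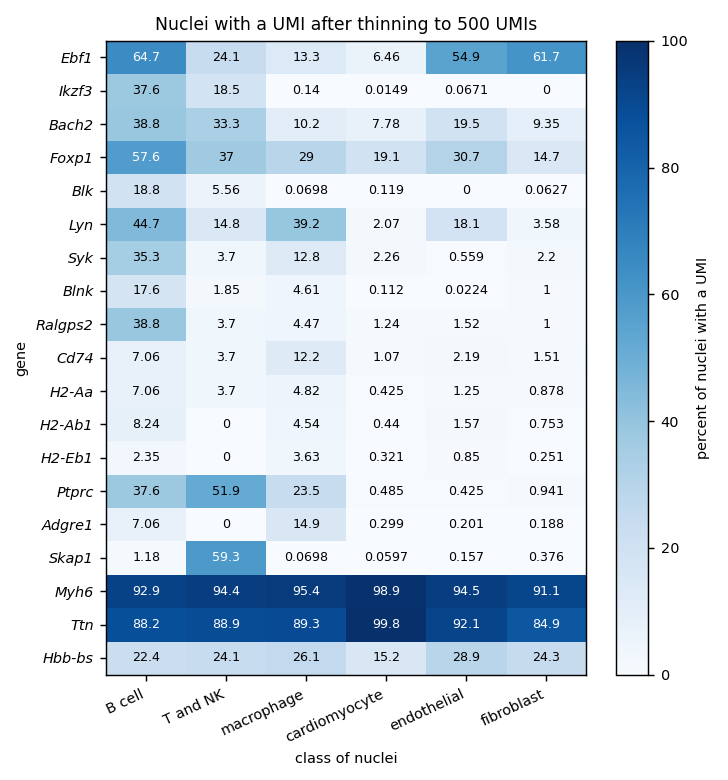
Percent of nuclei with at least 1 UMI of each gene after thinning to 500 UMIs, by class of nuclei (columns), with the percentage printed in each cell. Ikzf3, Blk and Ralgps2 are concentrated in the B cell column, Ebf1 is also found in 54.9% of ECs and 61.7% of fibroblasts, and Myh6 and Ttn are found in at least 84.9% of the nuclei of every class.

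The B cell transcription factors were followed across the libraries. Ebf1 had 4211, 4977, 4789 and 2563 CPM, and was lowest in RVVO 2. Bach2, which holds B cells back from the plasma cell fate, had 2485, 2990, 1596 and 571 CPM, and was also lowest in RVVO 2. Foxp1, needed for B cell development and quiescence, had 2462, 2763, 4091 and 1691 CPM and was found in 77 of the 85 nuclei. The groups overlapped for Ebf1 and for Foxp1. Ikzf3 had 552, 1293, 698 and 534 CPM. Bcl11a, a factor of early B cell development, had 322, 743, 599 and 301 CPM. The octamer-binding factor gene Pou2f2 had 138, 372, 499 and 489 CPM and its coactivator gene Pou2af1 had 138, 275, 499 and 195 CPM. All 15 transcription factors listed had UMIs in B cell nuclei, with a summed level of 12540, 16014, 14967 and 8500 CPM.

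Of the receptor genes outside the rule, Cd22, Blk, Lyn, Syk and Blnk were found in every library. Cd22 had 46.0, 210, 200 and 97.7 CPM in 22 nuclei. Blk had 207, 452, 499 and 188 CPM in 38 nuclei. The 38 nuclei with Blk all had UMIs of at least 2 rule genes. Lyn had 1150, 2036, 1098 and 1375 CPM, Syk had 713, 1438, 798 and 669, and Blnk had 506, 469, 499 and 308. Of the 20 genes on the list of receptor signalling and surface genes, 19 had UMIs, and Vpreb3 had 0. The listed genes summed to 4993, 9906, 6985 and 6133 CPM, highest in sham 2.

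Against all other kept barcodes, the genes with the largest fold of summed CPM were mostly of the B lineage, which follows in part from the rule and is given with no test. A pseudocount of 1 CPM was added to both sides. The fold was 212 for Pax5, 170 for Ms4a1, 159 for Ikzf3 and 97.1 for Bank1. Among genes that the rule did not use, it was 142 for Kynu of tryptophan metabolism, 131 for the inhibitory receptor gene Btla, 130 for Siglecg, which restrains receptor signalling, and 114 for Pou2af1. Then came Tmem163 with 88.8, the calcium channel gene Cacna1e with 86.9, Blk with 84.4, Cd22 with 83.3, Alox15 with 72.7, Clec2g with 66.3, Zfp831 with 65 and the interleukin 5 receptor gene Il5ra with 61.0. Alox15 owed its place to the Bank1-only nuclei.

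B cell nuclei were higher than T and NK nuclei of the same libraries in Ebf1 and lower in Bcl2. Summed counts went into a quasi-likelihood test of edgeR, with the library as a block and without the genes that chose either class. Of 1372 genes tested, 82 passed an adjusted p of 0.05 (5.98%), 43 higher in B cell nuclei (3.13%) and 39 lower (2.84%). The median log2 fold change of all tested genes was -0.05. With the 60 nuclei alone, 58 were higher and 46 lower. Leaving out a library left 40, 31, 53 and 42 calls.

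Of the 20 listed receptor genes 9 passed the filter on low counts and 6 were called higher. Of the 15 transcription factors 10 passed it and 5 were called higher. Over all tested genes, 3.13% were called higher. Some of the listed genes passed the filter through B cell nuclei alone, so these counts of called genes are a description. Among them were Ly86, Blnk, Bcl11a, Pou2f2 and Pou2af1, with at most 1 UMI in T and NK nuclei. Syk was at 713, 1438, 798 and 669 CPM in B cell nuclei and at 27.8, 114, 65.5 and 19.8 CPM in T and NK nuclei (log2 fold change 3.99 ± 0.47 SE). With 8 UMIs in T and NK nuclei, Syk also passed the filter through B cell nuclei alone, so this is a description. The classes did not overlap in any library. T cells are known to use the related kinase Zap70 in its place. Blnk was higher by a log2 of 5.51, Ralgps2 by 3.46, Lyn by 2.45 and Prkcb by 1.76. Ralgps2, with 10 UMIs in T and NK nuclei, passed the filter through B cell nuclei alone as well. Ly86, which encodes the partner of the Toll-like receptor homologue RP105, had 108 UMIs against 0 in T and NK nuclei, at least 22.0-fold higher when 3 UMIs are allowed over the class.

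Among the transcription factors, Bcl11a was higher by 5.65 ± 0.72 on the log2 scale, Pou2f2 by 5.37, Ebf1 by 2.74 ± 0.51 (edgeR adjusted p = 0.00414) and Mef2c by 1.90. Pou2af1 had 54 UMIs against 0, at least 11.0-fold higher. Ikzf3, Bach2, Foxp1, Ikzf1 and Etv6 did not pass the test, the first of these with a log2 fold change of 0.65. The genes with the largest rise included Siglecg, at least 11.4-fold, and Fgd2, an exchange factor of Cdc42, at least 12.4-fold, both with 0 UMIs in T and NK nuclei. Wdfy4 (5.30) and March1 (5.29), both known from antigen presentation, and Chst3 (5.14) followed. Each of these 5 genes was higher in B cell nuclei in all 4 libraries, which their selection required. They had at most 2 UMIs in T and NK nuclei and passed the filter through B cell nuclei alone, so this is a description.

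Agbl1 stood among the same genes with 112 UMIs against 0, at least 22.8-fold higher. Agbl1 too passed the filter through B cell nuclei alone, so this is a description. It encodes a carboxypeptidase that removes glutamate residues from tubulin. Its level in B cell nuclei was 1473, 630, 798 and 7.52 CPM, so RVVO 2, the library with the most B cell nuclei, was nearly without it. The UMIs lay in 17 nuclei (5, 9, 2 and 1), all of them with at least 2 rule genes, and 1 nucleus of sham 1 held 29 of them. Without sham 1 the difference from T and NK nuclei did not pass the test (edgeR adjusted p = 0.0659), nor did it with DESeq2 (adjusted p = 0.0943).

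The genes lower in B cell nuclei included Clnk, Dach2 and Camk4. Clnk, which encodes an adaptor, had 0 UMIs against 78, at least 42.5-fold lower. Dach2 had 0 against 79, at least 43.0-fold, and the interleukin 18 receptor gene Il18r1 had 0 against 44, at least 24.0-fold. Clnk, Dach2 and Il18r1 passed the filter through T and NK nuclei alone, so this is a description. The log2 fold change was -5.6 for Camk4, -5.46 for Cd226, -4.59 for the T cell factor gene Tox, -4.49 for the T cell receptor kinase gene Prkcq and -4.38 for the interleukin 7 receptor gene Il7r. It was -4.11 for Ikzf2 and -3.76 for Lef1. These 7 genes, from Camk4 to Lef1, had 2 to 11 UMIs in B cell nuclei. They too passed the filter through T and NK nuclei alone, so their values are a description. Bcl2, the survival gene, was at 322, 307, 299 and 526 CPM in B cell nuclei and at 945, 1660, 2324 and 871 CPM in T and NK nuclei (log2 fold change -1.82 ± 0.40, edgeR adjusted p = 0.0132).

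Macrophages, the most numerous leukocytes in these data, gave the comparison with more depth. Of 7756 genes, 536 passed (6.91%), 241 higher in B cell nuclei (3.11%) and 295 lower (3.8%), with a median log2 fold change of -0.10 over all tested genes. Without TMM normalization this median was 0.03. The 60 nuclei alone gave 209 higher and 375 lower, whereas DESeq2 gave 188 higher and 135 lower and edgeR without TMM 306 and 257, so the balance of directions changed with the tool and the scaling. Without sham 2 there were 240 calls and without RVVO 2 there were 228. The genes named below as higher or lower kept their direction in every alternative in which they were tested. The Bank1-only nuclei carried macrophage genes, and for several genes the value without them is given below.

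Siglecg and Ikzf3 were among the genes with the largest rise. Siglecg had 56 UMIs against 0 in 1432 macrophages, at least 311-fold higher. Ikzf3 was at 552, 1293, 698 and 534 CPM in B cell nuclei and at 0, 1.18, 0 and 3.11 CPM in macrophages (log2 fold change 8.46 ± 0.48). Zfp831 (7.95), Chst3 (7.76), Blk (7.70), Agbl1 (7.59), Cd22 (7.29), Fam169b (7.24) and Cxcr5 (7.21), the receptor that guides B cells to follicles, were higher as well. All of these genes had at most 7 UMIs in macrophages and passed the filter on low counts through B cell nuclei alone. Their folds are thus a description. Beside the counts of listed genes that follow, 3.11% of all tested genes were called higher. Of the 15 transcription factors 13 passed the filter on low counts, in part through B cell nuclei alone, and 8 were higher, namely Ikzf3, Bcl11a, Pou2af1, Ebf1 (2.73), Bach2 (2.50), Tcf3 (1.86), Foxp1 (1.53) and Pou2f2 (1.28). The myeloid factor gene Spi1 was lower, at 46.0, 32.3, 0 and 75.2 CPM against 122, 175, 166 and 126 CPM (log2 fold change -1.52 ± 0.48, edgeR adjusted p = 0.0248). Of the 20 receptor genes 16 passed the filter, again in part through B cell nuclei alone, and 9 were higher. Among them were Fcrla (5.05), Cd37 (3.01), Ralgps2 (2.76), Blnk (1.84), Syk (1.46) and Prkcb (1.0). Lyn was not higher (0.03, edgeR adjusted p = 0.989).

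The genes with the largest fall all had 0 UMIs in B cell nuclei, so only lower bounds can be given. These genes passed the filter through macrophages alone. Among them were Ms4a7, a membrane gene of macrophages, at least 7.83-fold lower, the 5-lipoxygenase gene Alox5 at least 7.15-fold and Rnf180 at least 6.93-fold. For Ctnnd2, Efcab11, Muc16, Metrnl, Gpr141, Tlr5 and Mras the bounds ran from 4.30-fold down to 3.36-fold. The complement genes C1qa (-1.38) and C1qb (-2.0), the costimulation gene Cd86 (-1.38), the adhesion gene Cd44 (-1.36) and the interferon-stimulated gene Oasl2 (-2.07) were also lower. In the 60 nuclei alone, where fewer macrophage transcripts were found, these values were -2.96 for C1qa, -5.16 for C1qb, -2.07 for Cd86, -1.47 for Cd44 and -2.7 for Oasl2, and Spi1 was at -3.27, all past edgeR's test. In those nuclei C1qb had 1 UMI, Spi1 3 and C1qa 4, so these genes passed the filter through macrophages alone. Their values in the 60 nuclei are a description, and the sizes of these folds are imprecise. Prkcb, at 1.02 in those nuclei, did not pass (edgeR adjusted p = 0.0821). Bcl2 (1.23) and Traf3 (1.23) were higher.

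**Figure D3:**
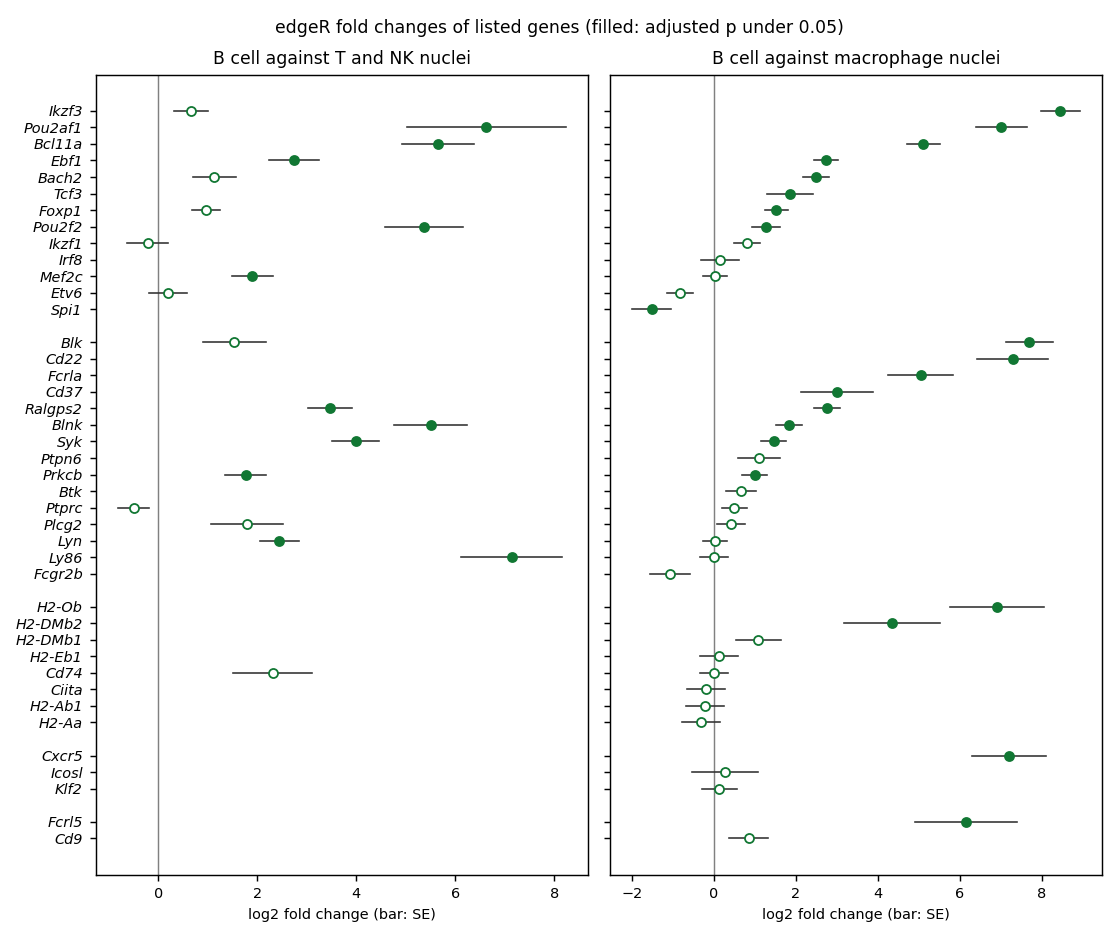
Log2 fold changes of listed genes in B cell nuclei against T and NK nuclei (left) and against macrophages (right), with SE as bars; filled points passed edgeR's adjusted p of 0.05. Bcl11a, Syk, Blnk and Ebf1 lie above 0 with filled points on both sides, whereas Lyn is filled on the left alone and at 0.03 on the right.

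MHC class II genes, with which B cells and macrophages present peptides to T cells, were found in 32.9% of B cell nuclei and 25.1% of macrophages after thinning. The 11 listed genes, which include the invariant chain gene Cd74 and the chain genes H2-Aa, H2-Ab1 and H2-Eb1, summed to 690, 905, 898 and 767 CPM. After thinning to 500 UMIs, at least 1 UMI of the list was found in 21.1%, 39.3%, 16.7% and 37.5% of B cell nuclei, or 28 of 85 (32.9%). The share was 25.1% in macrophages and 7.41% in T and NK nuclei. In CMs, ECs and fibroblasts it was 2.56%, 7.02% and 3.83%. The groups overlapped, with RVVO minus sham at -3.09 percentage points (p = 0.667 in an exact permutation test, two-sided, where 2 libraries against 2 cannot go below 0.333). The expected share over all possible thinnings, computed exactly, was 33.6% in the 85 nuclei, 41.3% in the 60, 15.2% in the 25 Bank1-only nuclei and 24.6% in macrophages. By library it was 33.2%, 49.0%, 44.2% and 37.4% in the 60 nuclei, against 21.5%, 29.3%, 14.1% and 26.1% in macrophages. The 60 nuclei were thus above macrophages in all 4 libraries, with 3 nuclei in RVVO 1, and no test was made of this difference.

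Against macrophages, 8 of the 11 MHC class II genes passed the filter on low counts. Of these, 2 were called higher, both with few UMIs, where 3.11% of all tested genes were called higher. Those 2 passed the filter through B cell nuclei alone, so their values are a description. H2-Ob encodes a chain of the peptide-loading modulator H2-O that B cells are known to carry. It had 17 UMIs in B cell nuclei (69.0, 162, 0 and 30.1 CPM) and 1 in all macrophages (log2 fold change 6.92). H2-DMb2, of the peptide-loading molecule H2-DM, was higher by 4.34 with 10 UMIs against 7, and was found in 0.489% of macrophages. Cd74 had 253, 291, 399 and 233 CPM in B cell nuclei and 216, 318, 150 and 237 CPM in macrophages (log2 fold change 0.01, edgeR adjusted p = 0.996). H2-Aa was at -0.31 (edgeR adjusted p = 0.873). The list's median log2 fold change was 0.07, near that of all genes.

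Several of the genes that were higher in B cell nuclei have motifs of B cell transcription factors in the 250 bases before their RefSeq start. Promoters of 25 of 36 B cell genes were matched in RefSeq's annotation of GRCm38.p6, and 3 motifs were searched on both strands. They were the Ebf1 motif of TCCC and GGGA with 2 free bases between them, the octamer ATGCAAAT, bound by Pou2f2 with Pou2af1, and CAGGAAGT, bound by ETS factors such as Spi1. The motifs do not overlap each other in these sites. The sites below are shown because they belong to genes of the receptor and its signalling chain, written 5′ to 3′ on the gene's strand in 30 bases with the match in capitals.
Cd22, Ebf1 motif, chr7:30879058-30879087, minus strand, 49 bases before the start: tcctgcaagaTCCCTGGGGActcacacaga
Blnk, octamer in reverse complement, chr19:40994333-40994362, minus strand, 130 bases before the start: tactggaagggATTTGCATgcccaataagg
Prkcb, octamer, chr7:122289044-122289073, plus strand, 70 bases before the start: gcctgggtttcATGCAAATgagggaggcgg
Blnk, ETS motif, chr19:40994406-40994435, minus strand, 203 bases before the start: tttgggacaaaCAGGAAGTagtgctcagtc
Cd79a, ETS motif, chr7:24897430-24897459, plus strand, 56 bases before the start: gcacggctgaaCAGGAAGTgaggcggagtt

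The Ebf1 motif was present in 1 of the 25 promoters, against 0.779% of all 32851 RefSeq promoters of this length. The octamer was present in 2 of 25, against 1.60%, and the ETS motif in 2 of 25, against 2.69%. In the GENCODE annotation of the same build, the Cd22 site lay within the gene outside its exons, and the Blnk, Prkcb and Cd79a sites lay in untranslated exon sequence of longer transcripts of these genes. A match shows only that the letters are there. Cd22 and Blnk were higher in B cell nuclei than in macrophages by a log2 of 7.29 and 1.84, and Prkcb by 1.0, whereas Cd79a was used by the rule.

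Genes of B cell stages had few UMIs. Of the 11 listed genes of pro-B and pre-B cells, Rag1, Rag2 and Dntt, which act in rearranging the antibody genes, had 0 UMIs. So did Vpreb1, Vpreb2, Igll1 and Myb, in 248418 UMIs of B cell nuclei. The other 4 were detected. Erg had 11 UMIs in 9 nuclei, Il7r 11 in 2, Cd93 9 in 9 and Sox4 4 in 4. Erg and Cd93, each in 10.6% of B cell nuclei, were also found in 8.31% and 9.57% of macrophages and in 55.2% and 35.5% of ECs. Of the 11 Il7r UMIs, 10 lay in 1 Bank1-only nucleus. The plasma cell genes Sdc1, Jchain and Tnfrsf17 had 0, Xbp1 had 10 and Mzb1 had 7, each in 7 nuclei, Prdm1 had 2 and Derl3 had 1. The germinal centre genes Gcsam, Mef2b and Rgs13 had 0, whereas Bcl6 had 13 in 11 nuclei, Fas had 13 in 10 and S1pr2 had 3 in 3. Bcl6 and Fas were also found in macrophages, in 13.9% and 10.1% of nuclei against 12.9% and 11.8% of B cell nuclei. At this depth a gene with 0 UMIs may have been missed in single nuclei, but a total of 0 over the class allows at most 3 UMIs.

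Genes that divide mature B cells into follicular, marginal zone and B-1 cells were detected at low counts. Cxcr5 had 69.0, 97.0, 200 and 120 CPM in 16 nuclei, and Fcer2a, which encodes CD23, was found in 8. Klf2, which governs B cell trafficking, was found in 21, of which 6 were Bank1-only nuclei, and in 22.3% of macrophages. On the other side, Cd9 was found in 17, of which 7 were Bank1-only nuclei, Fcrl5 in 12, Zbtb32 in 9 and Bhlhe41 in 6 nuclei, the last of these all from RVVO 2. Cr2, on the follicular list, had 8 UMIs and Tnfrsf13b, which encodes the BAFF receptor TACI, had 14, again all in RVVO 2. Against macrophages, Cxcr5 (7.21) and Fcrl5 (6.15) were higher on the log2 scale. With 2 UMIs each in macrophages they passed the filter through B cell nuclei alone, so this is a description. With 1 to 21 nuclei per gene, the nuclei could not be divided into these kinds.

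For retention in tissue and survival, Itga4, the α4 integrin chain, had 437, 388, 200 and 541 CPM in 44 nuclei, and the chemokine receptor Ccr9 and Rgs1 had 0 UMIs. Bcl2 was found in 32 nuclei and Traf3 and Nfkb1, of NF-κB signalling, in 43 each. Tlr9 had 0 UMIs, whereas Tlr7 was found in 13 nuclei, 6 of the 60 and 7 of the 25 Bank1-only nuclei, and in 24.4% of macrophages. Of 10 cytokine genes of B cells, Il10, Tnf, Lta, Il6, Csf2, Ifng and Ccl7 had 0 UMIs, and Tgfb1 led the rest with 24. Interferon-stimulated genes summed to 1404, 873, 200 and 406 CPM, lowest in RVVO 1.

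Proliferation was seen in 2 nuclei. The list of 20 dividing cell genes had 3, 2, 1 and 91 UMIs. In RVVO 2, 1 nucleus held 62 of these, with 9 of Top2a and 7 of Mki67, and also 24 UMIs of Bank1, 7 of Pax5 and 26 of Ebf1. Another nucleus of RVVO 2 held 19, with 4 of Top2a, and 14 of Bank1 and 17 of Ebf1. They had 8337 and 6828 UMIs, well above the median of 3561.5 in that library. Outside these 2 nuclei the list had few UMIs in any library. With 2 nuclei in 1 of 4 libraries, no comparison was made between the groups.

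The share of B cell nuclei was compared between sham and RVVO over libraries. It was 0.146% (exact 95% binomial interval 0.0881 to 0.228), 0.192% (0.128 to 0.278), 0.0728% (0.0267 to 0.158) and 0.253% (0.173 to 0.357) of kept barcodes. The intervals cover counting error only. RVVO 1 was the lowest and RVVO 2 the highest of the 4 libraries, so the RVVO libraries lay on both sides of the sham libraries. The limit of 1 UMI over the excluding genes was not scaled to depth. Kept barcodes of RVVO 1, the deepest library, had a median of 2 such UMIs, against 1 in each other library. Shares after thinning are given below, and the cause of the order was not tested. The means were 0.169% ± 0.0325 in sham and 0.163% ± 0.128 in RVVO (SD, n = 2 each), and RVVO minus sham was -0.0063 percentage points (p = 1 in an exact permutation test, two-sided). The spread between the RVVO libraries was far larger than this difference. For the 60 nuclei the shares were 0.0770%, 0.151%, 0.0364% and 0.198%, in the same order of libraries.

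Per 100 B cell, T and NK and macrophage nuclei, there were 5.6, 6.64, 3.33 and 5.08 B cell nuclei. The RVVO libraries were lower than either sham library, by -1.91 between the means (p = 0.333 in an exact permutation test, two-sided, which is the lowest value possible with 2 against 2). The groups overlapped when at least 5 UMIs or at least 2 B cell genes were required. The limits on other cells' genes also changed the order. Where they were dropped and at least 2 B cell genes required, a setting chosen after seeing the data, the shares of kept barcodes were 0.193%, 0.302%, 0.449% and 0.594%, with both RVVO libraries above. Thinning to 1000 UMIs left out barcodes with fewer, so that 11510, 12256, 8186 and 12635 remained. Under the same setting the shares of these were 0.0608%, 0.180%, 0.0855% and 0.174%, which overlapped. Under the rule as stated, thinning to 1000 UMIs gave 0.104%, 0.171%, 0.110% and 0.174%, from 12, 21, 9 and 22 nuclei.

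**Figure D4:**
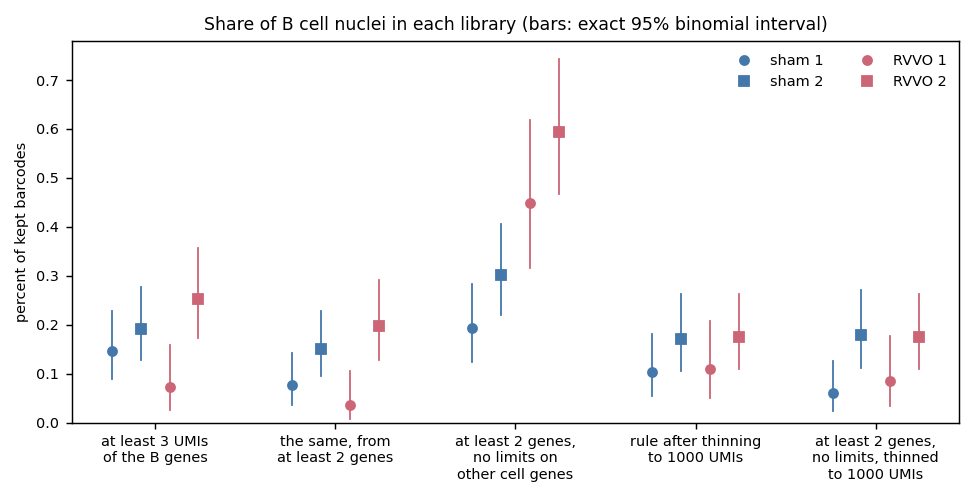
Percent of kept barcodes that were B cell nuclei in each library (points) under 5 ways of choosing them, with exact 95% binomial intervals as bars. Under the rule RVVO 1 is lowest and RVVO 2 highest; without the limits on other cells' genes both RVVO libraries lie above both sham libraries, and after thinning they no longer do.

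RVVO against sham within B cell nuclei was tested on the summed counts with edgeR. Of 1396 genes, 2 were called (0.143%), 1 higher and 1 lower in RVVO (0.0716% each), and 38 had an unadjusted p under 0.05. For 350 genes (25.1%) the 2 groups of libraries did not overlap. Both called genes are linked to sex. Xist, which silences the second X chromosome of females, had 68, 90, 0 and 0 UMIs, or 1565, 1454, 0 and 0 CPM, and was at least 71.5-fold lower in RVVO when 3 UMIs are allowed over the group (adjusted p = 6.85e-09). The Y-linked gene Uty had 0, 0, 6 and 36 UMIs, or 0, 0, 599 and 271 CPM, and was at least 10.3-fold higher (adjusted p = 0.00174). The other kept barcodes showed the same division, with 1498, 1510, 0.826 and 0.592 CPM of Xist and 0.103, 0.0413, 323 and 317 CPM of Uty. The sham libraries thus held female nuclei and the RVVO libraries male nuclei, and the effects of sex and of surgery cannot be told apart in any difference between the groups. DESeq2 called Xist alone, as did edgeR on the 60 nuclei. With 1 library left out, edgeR called 0 genes without sham 1 (20 at an unadjusted p under 0.05), Xist without sham 2, Xist, Agbl1 and Saa3 without RVVO 1, and the haemoglobin gene Hba-a1 without RVVO 2.

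The next 8 genes by unadjusted p missed the threshold. Tsix, antisense to Xist, had 24 UMIs in sham and 0 in RVVO (adjusted p = 0.0978), and reads of overlapping genes may be shared if strand was not used. Ddx3y, also Y-linked, had 0 in sham and 28 in RVVO (adjusted p = 0.377). Gbp7, an interferon-induced GTPase gene, had a log2 fold change of -2.68 (adjusted p = 0.332), Dach1 of -2.31 (0.377), Agbl1 of -2.62 (0.377) and Dock4 of -2.05 (0.493). Dach1, Gbp7 and Dock4 had 0 UMIs in RVVO 1, whose 10022 UMIs make 0 a common value. Tgfb2 had 69.0, 226, 0 and 774 CPM (1.84, adjusted p = 0.657), and 104 of its 120 UMIs lay in the Bank1-only nuclei. Hbb-bs of red cells had a log2 fold change of 1.97 (adjusted p = 0.657), and of -0.36 without RVVO 1.

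Agbl1 was called in some settings and not in others. Its level was 1473, 630, 798 and 7.52 CPM, so that RVVO 1 lay between the sham libraries and RVVO 2 far below. It passed when RVVO 1 was left out (log2 fold change -6.80, edgeR adjusted p = 9.53e-06), when at least 5 UMIs of the rule genes were required (-6.18, edgeR adjusted p = 0.0038) and with the replicate number as a block (-2.91, edgeR adjusted p = 0.0325). Over the other settings run the adjusted p lay between 0.377 and 1. The difference was thus one of RVVO 2 from the other 3 libraries.

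No list of B cell genes held a called gene between the groups. Of the transcription factors, 10 were tested with edgeR and 0 called, 1 of them with an unadjusted p under 0.05 (median log2 fold change -0.31, against -0.02 over all genes). That gene was Bach2, lower in both RVVO libraries (-1.52, unadjusted p = 0.0364, adjusted p = 0.999). Of the receptor genes, 11 were tested and 0 called, none with an unadjusted p under 0.05 (median -0.27). The 5 tested survival genes, Itga4 and Cd74 were not called either, none of them with an unadjusted p under 0.05, and DESeq2 called none of these. RVVO 1 entered these tests with 6 nuclei.

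RNA of other cells was present in the B cell nuclei, and its part in the results was not tested. The 8 CM markers summed to 29199, 16531, 34025 and 12589 CPM, led by Myh6, which was found in 85 of 85 nuclei. After thinning to 500 UMIs, Myh6 was found in 92.9% of B cell nuclei and 98.9% of CMs. The 6 erythroid markers summed to 644, 792, 6586 and 421 CPM, led by Hbb-bs with 253, 436, 3093 and 263 CPM. The CM list was higher in sham 1 and RVVO 1 than in the other libraries, and RVVO 1 stood apart in the erythroid list. In its other kept barcodes Hbb-bs had 926 CPM, against 314, 457 and 288 in the other libraries.

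Markers of the other leukocytes varied from list to list. The T cell list had 45 UMIs, all in RVVO 2, and 42 of them lay in 1 nucleus of 8201 UMIs that held 3 UMIs of Bank1, 23 of the T cell adaptor gene Skap1, 17 of Bach2 and 11 of Adgre1. Cd3d, Cd3e, Cd3g and Cd8a had 0 UMIs. The NK list had 2 UMIs, both of Gata3, with 7 of its 8 genes at 0, and the 5 mast cell genes had 0. The plasmacytoid dendritic cell list had 449 UMIs from 4 of its 7 genes, at 2462, 1584, 1397 and 1729 CPM, led by Tcf4 with 260 UMIs and Cox6a2 with 172. The list summed to 1730 CPM in T and NK nuclei and to 1905 CPM in macrophages. The dendritic cell list had 20 UMIs, 18 of them of Zbtb46. The plasmacytoid dendritic cell genes Siglech, Klk1 and Ccr9, the dendritic cell genes Flt3, Xcr1, Cd209a and Itgax, and the neutrophil genes Retnlg and Mmp9 had 0, the neutrophil list having 14 UMIs in all. The 7 listed EC markers summed to 3037, 1955, 3293 and 1586 CPM, led by Pecam1. Against macrophages, 6 of these markers were not called. Pecam1 alone was, higher by a log2 of 2.01 (edgeR adjusted p = 1.28e-08), where 3.11% of all tested genes were called higher. The list's median log2 fold change was 0.04, against -0.10 over all genes. Of the 176 Pecam1 UMIs, 156 lay in the 60 nuclei with at least 2 rule genes. The fibroblast list had 1312, 727, 1297 and 1526 CPM, led by Gsn, and its marker Tcf21 had 0 UMIs.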

How the data were processed

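The data were 10x 3′ single-nucleus libraries of the RV (2 sham, 2 RVVO). The deposited matrices hold UMI counts per gene and barcode, whole numbers that the authors made with Cell Ranger (5.0.0 per the file headers, 3.0.1 in the submitters' processing notes, which also list STAR, Seurat 3.0.2 and GRCm38/mm10), not normalized. The treatment of introns and strand was not given in the sources used here. GENCODE M21 positions were found for 27645 of 27998 identifiers. Ighm, the immunoglobulin constant genes, Trac and Trbc2 are not analysed here. Some genes that the naming rule selects are not reported here.

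The members, lists and tests were chosen with earlier results of these data known. T and NK nuclei had at least 3 UMIs over 7 T cell genes, among them Skap1, Themis, Cd247, Cd3e, Cd3g and Bcl11b, and at most 1 of the B cell genes. Macrophages had at least 3 over Mrc1, F13a1, Adgre1, Csf1r, Cd163 and Fcgr1 and at most 1 of the B cell genes or the T cell genes. CMs had at least 1% Ryr2. Doublet scores came from Scrublet's method in scanpy 1.11.5, the highest 0.8% per 1000 barcodes being marked and not removed.

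UMIs were summed per library and class and tested with edgeR 4.0.16 in R 4.3.3 (TMM, filterByExpr, quasi-likelihood test, Benjamini-Hochberg adjustment over all tested genes). Comparisons between classes had the library as a block and left out 22 choosing genes. Shares were compared by exact two-sided permutation over libraries. The edgeR steps were tested on simulated data. Named genes were the listed genes, the 10 called genes with the largest rise and fall that moved one way in all libraries, the 10 smallest p for RVVO against sham, and the 20 leading genes by fold found in at least 10% of B cell nuclei, without genes that have no proper symbol. A fold against 0 UMIs was set against 3 UMIs over the group. Alternatives were DESeq2 1.42.0, no TMM, no filter, no block, thinning, stricter and looser rules, doublets removed and each library left out.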

Additional observations from a re-analysis of the deposited data

How the results depend on the processing

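The share difference of -0.0063 points ran from -0.0966 to 0.0840 when a library was left out, and was 0.274 without limits on other cells' genes and with at least 2 B cell genes, chosen after seeing the data. Per 100 immune nuclei it ran from -2.79 to -1.04. The difference in nuclei with an MHC class II UMI ran from -13.5 to 7.33 points and was -36.8 in nuclei with at least 2 B cell genes, thinned in a separate random draw. As the expected share over all thinnings, both chosen after seeing the data, it was -0.62 in all nuclei and -0.28 in those with at least 2 genes. RVVO against sham gave 2 called genes, 1 with DESeq2, 1 with thinning to 500 UMIs (105 genes tested), 1 with at least 2 B cell genes and 0 to 3 with a library left out, where the group's lone library is assumed to vary like the other group. With the replicate block it gave 5 (Xist, Tsix, Agbl1, Uty and Ddx3y). The library numbers share only a number, the correlation of the 2 numbered pairs' deviations being 0.138. Against T and NK nuclei the 82 calls became 140 without the filter (14604 genes tested), 46 without the library block (799 tested against 1372), 9 with thinning (fewer genes tested) and 31 to 53 with a library left out. Against macrophages the 536 became 323 with DESeq2, 143 with thinning and 228 to 620, highest without RVVO 1. Other causes were not tested. Hbb-bs reversed to -0.36 (log2) without RVVO replicate 1 and was 2.96 without RVVO replicate 2. Of single named genes, 28 against T and NK nuclei stayed on their side of the threshold in 230 settings and lost a call in 26, 47 against macrophages in 406 and 55, and 10 for RVVO against sham in 78 and 6, with 5 gaining a call and 1 reversed. The kappa light chain share was not run. The depth of the B cell nuclei limits RVVO 1 most, with 10022 UMIs in 6 nuclei.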
